A study of Mus musculus with 3 samples.

Results

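The genes described here are 46 genes of mitosis and the kinetochore, a set given by gene name, found on the array through the accessions of its probes. All 46 were on the array, among 32176 genes or accessions in all, and 45 passed the filter on dim probes, as did 19803 genes or accessions in all. Of these, 14885 carried a gene symbol, and the 19803 together are called all genes below. Each gene was read from its brightest probe, chosen over both genotypes together. The exception was Aurkb, the kinase of the chromosomal passenger complex, whose only probe was not well above background in either genotype on any array, so that nothing is said of its level.

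RNA came from mouse embryoid bodies at day 8 of cardiac differentiation, either Hopx-/- (null) or Hopx+/- (heterozygous). Hopx encodes a small homeodomain protein of heart and progenitor cells. Embryonic stem cell lines of both genotypes came from blastocysts, were first grown on STO feeders and kept on inactivated mouse embryonic fibroblasts, and both were differentiated from hanging drops in the same medium with VEGF, bFGF, FGF10, ascorbic acid and Glutamax. No wild-type culture was included, and the labels do not say whether replicates were separate lines or separate differentiations, so the p-values cover the spread between these particular samples, which may be technical, and a difference between genotypes cannot be told apart from a difference between lines. Each of 3 arrays carried null and heterozygous RNA in different dyes, and every ratio below is null over heterozygous.

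The direction of replicate 3 is not settled by the labels, where the null RNA carries Cy5 each time. As labelled, its ratios correlated with those of replicates 1 and 2 at r = -0.87 each across probes, while replicates 1 and 2 correlated at r = 0.92. In the authors' deposited table it runs opposite to its scanner ratios (r = -0.94), and its dyes were turned accordingly. Hopx then read -2.98, -2.97 and -3.45 on the 3 arrays, a mean fall of 3.13 on the log2 scale (SE 0.11, n = 3). In a channel, 61.9% to 72.9% of the non-control spots stood well above background. Precision is limited by there being 3 arrays.

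Mitosis is driven by cyclin-dependent kinase 1 with cyclins A and B and by the Polo and Aurora kinases. Kinetochores, built on centromeres, attach chromosomes to the spindle, and the spindle checkpoint holds the anaphase-promoting complex until every chromosome is attached. Most of these genes are transcribed mainly in the second part of the cell cycle, so that their RNA is commonly read as a sign of cycling cells.

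Mitotic genes were higher in null embryoid bodies. Of the 45 genes measured, 33 rose and 0 fell at adjusted p under 0.05 (limma, adjusted over all 19803 genes). Not one of the 3 genes with a negative mean reached an unadjusted p under 0.05. The 33 were 73.3% of the members, beside 30.2% of all genes called higher, 30.1% called lower and 60.4% called in either direction. Of the 14885 genes with a symbol, 4838 were called higher and 4525 lower. The median ratio of the members was 0.39 on the log2 scale, beside 0.0034 for all genes tested. Member medians on the single arrays were 0.49, 0.38 and 0.41, beside 0.0084, -0.0046 and -0.0018 for all genes. All 3 arrays thus gave a median of the same sign and of a like size. Above 0 on every array that measured them were 38 of the 45, beside 38.1% of all genes. In these bulk samples, more dividing cells and more RNA per cell cannot be told apart.

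The 33 called members lay between 0.26 and 0.91, that is between 1.20-fold and 1.87-fold higher in null cultures. Of the 45, 9 (20%) were called and at least 1.5-fold higher, beside 13.3% of all genes. Called and at least 2-fold higher were 0 members, beside 4.87% of all genes. The median SD of a gene's ratio over the arrays was 0.14 for members and also 0.14 for all genes.

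**Figure D1:**
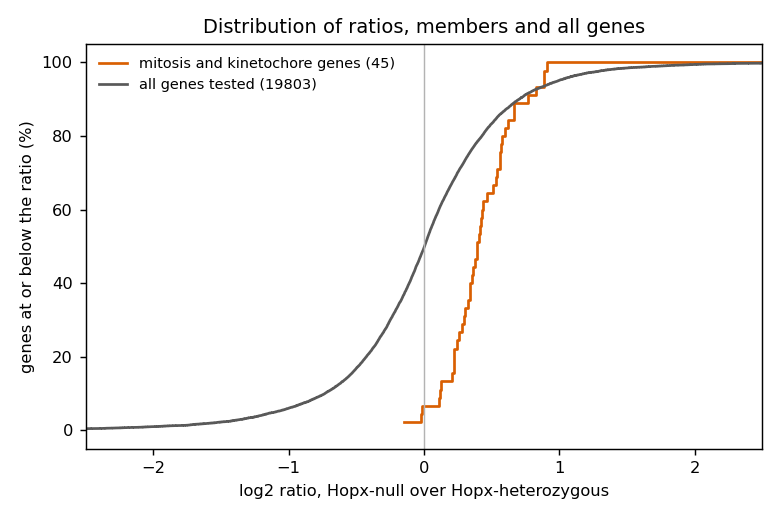
Cumulative share of genes (vertical axis, %) at or below each log2 ratio of null over heterozygous (horizontal axis) for the 45 mitosis and kinetochore genes and for all 19803 genes tested. The curve of the members lies to the right of 0 with its median at 0.39 and ends at 0.91, while that of all genes is centred near 0 and spreads to both sides.

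With replicate 3 left as labelled, limma called 0 of the 45 members and 0 genes in all, with 0 members and 61 genes at an unadjusted p under 0.05. The member median was then 0.15, and 38 of 45 means were positive. From replicates 1 and 2 alone, whose labels and Hopx values go together, 32 members rose, 0 fell and the median was 0.42. Beside this, 29.7% of all genes were called higher, and the median of all genes was 0.0032.

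The scaling bears on the size of these ratios. Loess sets the middle of the ratios to 0 at every brightness, and the members were bright, with a median mean log2 intensity of 12.1, beside 9.06 for all genes. With arrays centred on their median without loess, 42 members rose, beside 43.2% of all genes called higher, against 30.2% with loess. The member median was 0.77 and the median of all genes 0.23, leaving 0.54 between them. Of all calls, 73.9% were higher, against 50.1% with loess. The 3 members with a mean below 0 after loess, Kif23, Hmmr and Pttg1, were then positive, so that all 45 means lay above 0.

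**Figure D2:**
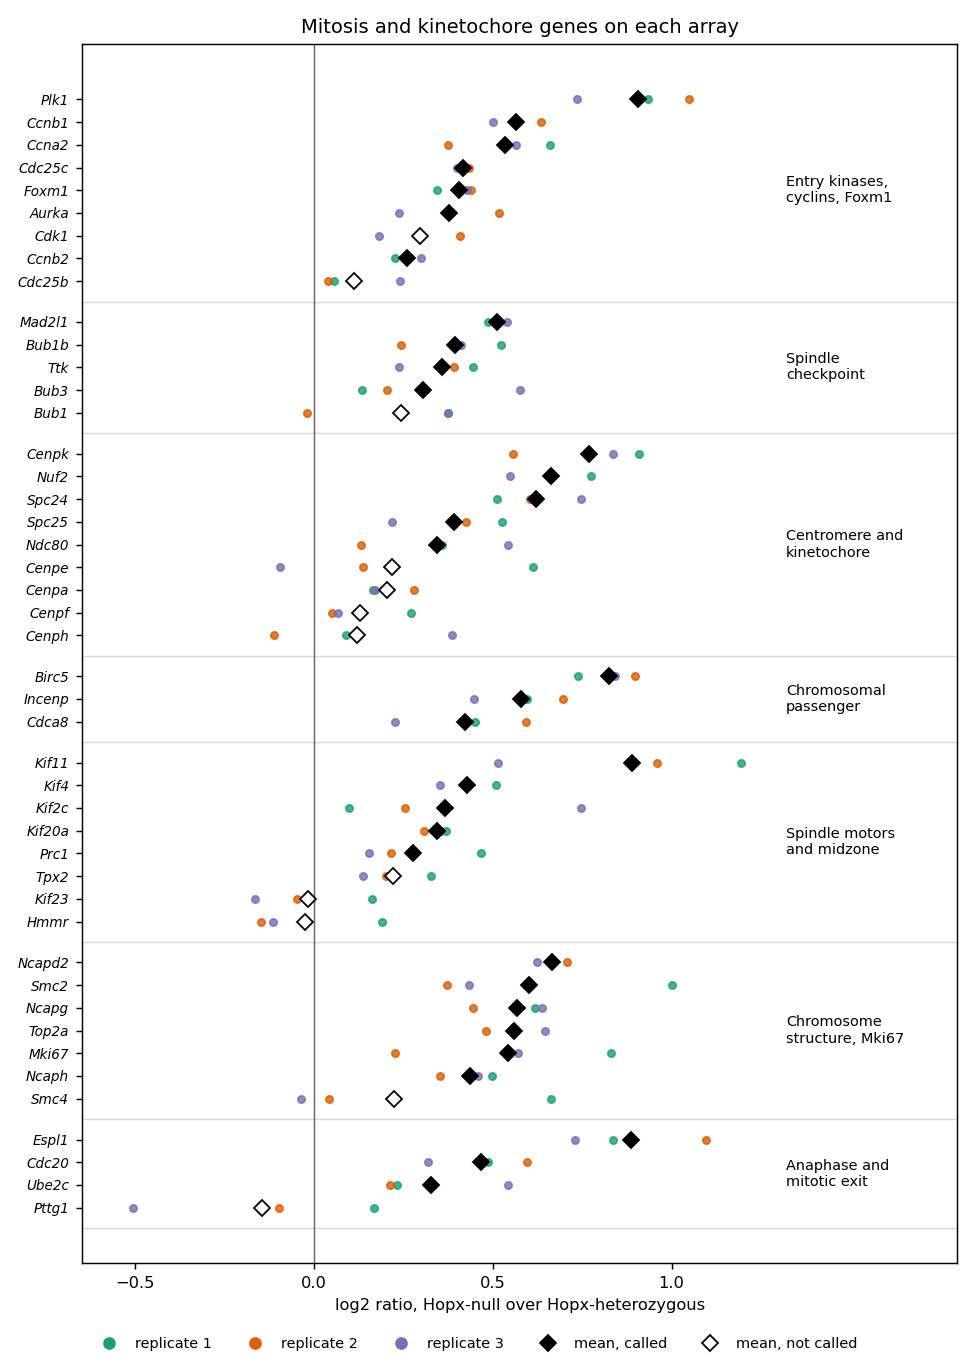
Log2 ratio of null over heterozygous (horizontal axis) for each of the 45 measured genes, grouped by role, with the 3 arrays as coloured points and the mean as a diamond, filled where limma called the gene and open where it did not. Means run between -0.15 for Pttg1 and 0.91 for Plk1, and filled diamonds stand to the right of 0 in every role.

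Among the kinases and cyclins of mitotic entry, 7 of 9 rose and 2 were not called, with a median of 0.40. Plk1, the Polo-like kinase that acts from entry to cytokinesis, had log2 signals of 14.37, 14.42 and 14.42 in null cultures, against 13.43, 13.37 and 13.69 in heterozygous cultures. The genotypes did not overlap, and Plk1 rose by 0.91 (SE 0.09, adjusted p = 5.2e-05), the largest ratio of all members. Here and for the members below, the share of all genes without overlap was not counted. Signals are printed only for members among the largest ratios, and those of some called members, such as Mki67 and Aurka, did overlap. Ccnb1, which encodes cyclin B1, the activating partner of Cdk1, had ratios of 0.56, 0.64 and 0.50 and rose by 0.56 (SE 0.08, adjusted p = 0.00044). Its other probes read 0.56 and 0.35. Ccna2, encoding cyclin A2, rose by 0.53, with array ratios of 0.66, 0.38 and 0.56.

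Foxm1, a transcription factor of genes expressed before and during mitosis, rose by 0.40 (SE 0.08, adjusted p = 0.0026), with ratios of 0.34, 0.44 and 0.43. Its second probe gave the same size, 0.40. Cdc25c, a phosphatase that activates Cdk1, read 0.42, 0.43 and 0.40 on the arrays, a narrow spread around its mean of 0.42. Aurka, the Aurora kinase of centrosomes and spindle poles, rose by 0.38, and Ccnb2, encoding cyclin B2, by 0.26 (adjusted p = 0.0221), the smallest rise called. Without replicate 2, Aurka stood at 0.31 (adjusted p = 0.056) and Ccnb2 at 0.26 (adjusted p = 0.0949), and Ccnb2 also lost its call without replicate 1 (0.28, adjusted p = 0.0725). Cdk1 itself was measured on 2 arrays, at 0.41 and 0.18, because its spot on replicate 1 was an outlier, and its mean of 0.30 (SE 0.11) did not pass (adjusted p = 0.0533). A dimmer Cdk1 probe, measured on all 3 arrays, read 0.20, 0.20 and 0.27 (adjusted p = 0.0416 over all probes). Cdc25b, a related phosphatase, stood at 0.11 (SE 0.09, adjusted p = 0.293).

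**Figure D3:**
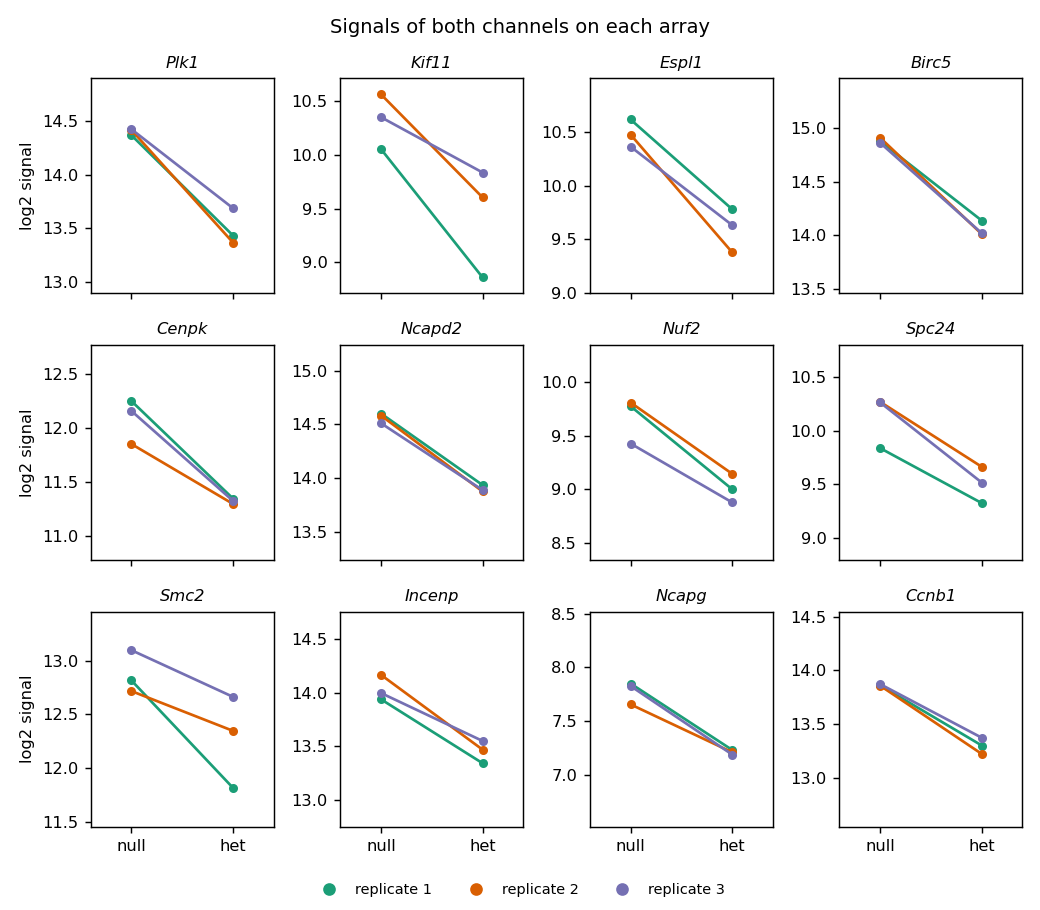
Log2 signal (vertical axis, each panel spanning the same 2 log2 units) in the null and the heterozygous channel of each array, joined by a line, for the 12 members with the largest ratios among those called with the same sign on every array. That choice fixes the downward slope of every line towards the heterozygous side; the panels show the size of each step, up to 1.20 for Kif11 on replicate 1, and how far the arrays differ in level.

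Genes of the spindle checkpoint, which delays anaphase, rose for 4 of 5, with a median of 0.36. Mad2l1, whose protein Mad2 binds and holds back Cdc20, read 0.49, 0.51 and 0.54 and rose by 0.51 (SE 0.08, adjusted p = 0.00067). The probes of this gene did not go together: 2 dimmer ones read 0.17 and -0.24, neither of which passed, and the mean of the gene's probes lost the call (0.15, adjusted p = 0.161). Bub1b, encoding the checkpoint protein BubR1, rose by 0.39, Ttk, the kinase Mps1 at the top of the checkpoint, by 0.36, and Bub3, a partner of both Bub proteins, by 0.31. Bub3 stood at 0.17 without replicate 3 (adjusted p = 0.146) and also lost its call without replicate 2 (0.36, adjusted p = 0.0538). The kinase gene Bub1 stood at 0.24 (SE 0.10, adjusted p = 0.0694), being at -0.02 on replicate 2 and 0.38 on both other arrays.

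At the centromere and kinetochore 5 of 9 members rose and 4 were not called, with a median of 0.34. All 4 subunits of the Ndc80 complex, which grips spindle microtubules, rose. Nuf2 had ratios of 0.77, 0.66 and 0.55 and rose by 0.66 (SE 0.09, adjusted p = 0.00023), Spc24 read 0.51, 0.60 and 0.75 and rose by 0.62, Spc25 rose by 0.39 and Ndc80 by 0.34. Ndc80 lost its call without replicate 1 (0.34, adjusted p = 0.0567) and without replicate 3 (0.24, adjusted p = 0.0528). A second, dim Nuf2 probe read -0.44, was called lower and was well above background in null cultures on 1 array only, and the mean of the gene's probes was not called (0.11, adjusted p = 0.289). Cenpk, a subunit of the inner kinetochore, had log2 signals of 12.25, 11.85 and 12.16 in null cultures, against 11.35, 11.30 and 11.32 in heterozygous cultures. These did not overlap, and Cenpk rose by 0.77 (SE 0.10, adjusted p = 0.00017), with a second probe at 0.70. The other 4 were not called. Cenpa, the histone variant that marks centromeres, stood at 0.20 (SE 0.08, adjusted p = 0.06), Cenpe, a kinetochore motor, at 0.22, Cenpf, a large kinetochore protein of late cell cycle, at 0.13, and Cenph, of the inner kinetochore, at 0.12. Cenpe and Cenph each had an array below 0.

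The chromosomal passenger complex corrects wrong attachments and later directs cytokinesis. Its 3 measured members, all but Aurkb, rose. Birc5, encoding survivin, had log2 signals of 14.88, 14.91 and 14.86 in null cultures, against 14.14, 14.01 and 14.02 in heterozygous cultures. The groups lay far apart beside their own spread, and Birc5 rose by 0.83 (SE 0.08, adjusted p = 5.1e-05), with other probes at 0.75 and 0.64. Incenp, the scaffold of the complex, read 0.60, 0.70 and 0.45 and rose by 0.58 (a second probe read 0.67). Cdca8, encoding borealin, rose by 0.42, and its second probe stood at 0.79.

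Of 8 genes for motors and proteins of the spindle and its midzone, 5 rose and 3 were not called. Kif11, the motor that pushes spindle poles apart, had log2 signals of 10.05, 10.56 and 10.35 in null cultures, against 8.86, 9.60 and 9.84 in heterozygous cultures. The genotypes did not overlap. Kif11 rose by 0.89 (SE 0.13, adjusted p = 0.00036), and its array ratios of 1.20, 0.96 and 0.52 were among the most uneven of the members. Kif4, a chromosome-bound motor, rose by 0.43, Kif2c, which takes microtubules apart at centromeres, by 0.37, Kif20a, a midzone motor, by 0.34 and Prc1, which bundles midzone microtubules, by 0.28. Kif2c rested on replicate 3, without which it stood at 0.17 (adjusted p = 0.143), and its second probe read 0.26 and was not called (adjusted p = 0.0596 over all probes). Prc1 lost its call without replicate 1 (0.18, adjusted p = 0.222) and without replicate 2 (0.31, adjusted p = 0.07). Tpx2, an activator of Aurora A, stood at 0.22 and just missed the threshold (adjusted p = 0.0502), while its dimmer probe read 0.83 and the mean of both was called (0.52, adjusted p = 0.0014). Kif23, a motor of cytokinesis, and Hmmr, a spindle protein that also binds hyaluronan, had means near 0, at -0.02 and -0.02, with replicate 1 above 0 and the other arrays below. With median centring without loess both turned positive, Kif23 at 0.30 (adjusted p = 0.0529) and Hmmr at 0.39 (adjusted p = 0.0262), with the median of all genes at 0.23.

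Genes that shape chromosomes rose for 6 of 7, with a median of 0.56. The condensin I complex compacts chromosomes, and Ncapd2, one of its regulatory subunits, had ratios of 0.67, 0.71 and 0.62 and rose by 0.66 (SE 0.08, adjusted p = 0.00016). Ncapg, a further such subunit, read 0.62, 0.45 and 0.64 and rose by 0.57, and Ncaph rose by 0.44. Smc2, of the ATPase core, read 1.00, 0.37 and 0.43 and rose by 0.60 (SE 0.13, adjusted p = 0.0032). Its partner Smc4 stood at 0.22 (SE 0.13, adjusted p = 0.184), with ratios of 0.66, 0.04 and -0.04, so that both core genes were highest on replicate 1. Top2a, the topoisomerase that untangles sister chromatids, read 0.56, 0.48 and 0.65 and rose by 0.56 (SE 0.08, adjusted p = 0.0005). Mki67, which encodes the proliferation marker Ki-67, read 0.83, 0.23 and 0.57 and rose by 0.54 (SE 0.12, adjusted p = 0.0037), with a second probe at 0.49.

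Anaphase begins when the anaphase-promoting complex, switched on by Cdc20, destroys securin and so frees separase to cut cohesin. Espl1, which encodes separase, had log2 signals of 10.62, 10.48 and 10.36 in null cultures, against 9.78, 9.38 and 9.63 in heterozygous cultures. It rose by 0.89 (SE 0.10, adjusted p = 7.8e-05), with no overlap between genotypes. Pttg1, which encodes securin, the inhibitor of separase, stood lowest of all members at -0.15 (SE 0.12, adjusted p = 0.344), and its ratios of 0.17, -0.10 and -0.51 lay on both sides of 0. A dimmer Pttg1 probe read 0.12, also uncalled, and with a dye term Pttg1 was called lower (-0.24, adjusted p = 0.0336). Under median centring without loess it stood at 0.28, uncalled. Cdc20 rose by 0.47 and Ube2c, a ubiquitin-conjugating enzyme of the same complex, by 0.33. Without replicate 3 Ube2c stood at 0.22 and was not called (adjusted p = 0.0625).

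In all, 14 members had more than 1 tested probe. Of their 17 other probes, 12 were called higher, 1 lower and 4 were not called, and 14 had the sign of the brightest probe. These calls were adjusted over all probes. The share of all tested probes called, and how often other genes' probes share a sign, were not counted.

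Promoters of mitotic genes are known in mouse and human cells for a cell cycle homology element with the letters TTTGAA, bound by the MuvB core shared by the DREAM repressor and the Myb-MuvB activator, and for CCAAT boxes, bound by NF-Y. Both were searched as letters on both strands of the RefSeq promoter table (GRCm38.p6, 250 bases before to 50 after each start), where 37 of the 46 genes matched by symbol, with 41 promoters. TTTGAA was found for 26 of these 37 genes (70.3%), beside 20.2% of the 27025 genes in the table and 17.9% of its 32851 promoters. CCAAT was found for 30 (81.1%), beside 41.1% of genes and 37.4% of promoters, and both for 24 (64.9%), beside 7.97% of genes and 6.95% of promoters. Among the 11802 genes of the table that were also tested on the arrays, the shares were 14.6% for TTTGAA, 42.4% for CCAAT and 5.94% for both. The motifs shared a base in 1 of the 41 promoters. Of the 27 matched members that rose, 21 held TTTGAA and 21 held CCAAT, and of the 10 that were not called, 5 and 9. These are counts of letters, given without a test.

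The 150 bases before the start are shown for the 3 members with the largest ratios, for Cdk1, and for Hmmr and Pttg1, the lowest means, so that letters and ratios can be set side by side. Capitals mark TTTGAA or CCAAT, or their reverse complements. The windows are chr15:102296143-102296292 on the + strand for Espl1, chr19:37376232-37376381 on the + strand for Kif11, chr7:122159285-122159434 on the + strand for Plk1, chr10:69352913-69353062 on the - strand for Cdk1, chr11:40733438-40733587 on the - strand for Hmmr and chr11:43425982-43426131 on the - strand for Pttg1, each written 5′ to 3′ on the strand of its gene.
Espl1: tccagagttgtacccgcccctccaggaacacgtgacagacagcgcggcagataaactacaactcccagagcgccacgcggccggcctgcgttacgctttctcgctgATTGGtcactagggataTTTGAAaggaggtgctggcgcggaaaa
Kif11: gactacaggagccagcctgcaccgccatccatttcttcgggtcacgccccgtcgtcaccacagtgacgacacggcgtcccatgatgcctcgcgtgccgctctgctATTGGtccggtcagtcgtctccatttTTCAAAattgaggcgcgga
Plk1: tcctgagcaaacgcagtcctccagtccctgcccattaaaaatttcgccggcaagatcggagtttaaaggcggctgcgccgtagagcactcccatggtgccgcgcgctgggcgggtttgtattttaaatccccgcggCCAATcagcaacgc
Cdk1: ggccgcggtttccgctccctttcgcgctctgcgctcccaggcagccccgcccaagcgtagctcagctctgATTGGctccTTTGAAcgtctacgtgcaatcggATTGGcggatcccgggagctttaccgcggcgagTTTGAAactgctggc
Hmmr: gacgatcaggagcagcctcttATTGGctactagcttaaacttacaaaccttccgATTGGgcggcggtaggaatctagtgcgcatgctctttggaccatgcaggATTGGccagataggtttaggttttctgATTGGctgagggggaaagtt
Pttg1: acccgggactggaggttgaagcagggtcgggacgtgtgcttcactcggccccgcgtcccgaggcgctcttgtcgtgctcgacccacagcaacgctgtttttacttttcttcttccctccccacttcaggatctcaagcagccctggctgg

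Espl1 and Kif11, at 0.89 each, held both motifs close before the start. TTTGAA began 27 bases before the start of Espl1, and its reverse complement 19 bases before that of Kif11. The CCAAT box was reversed in both, 44 and 45 bases before the start, so that in Kif11 both motifs lay on the same strand. Plk1 held a CCAAT box 14 bases before the start, and TTTGAA after the start, outside the window shown. Cdk1, at 0.30, held TTTGAA 71 and 15 bases before the start and reversed CCAAT boxes 80 and 48 bases before. A further reversed CCAAT box of Cdk1 lay 208 bases before the start, outside the window shown. Hmmr, at -0.02, held 4 CCAAT boxes in the same window, a further one before it and TTTGAA after the start. The whole promoter of Pttg1, at -0.15, held neither motif. That of Birc5, at 0.83, held neither either, so these letters were present and absent at both ends of the range.

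Other genes of mitosis, in 6 lists written for this comparison with earlier results of these data known, were called higher more often than lower, unevenly between lists. Of 96 tested, 53 rose, 6 fell and 37 were not called, with a median of 0.29. The number that fell was 3 without replicate 2 and 8 without replicate 3. In these lists, as for the members, counts are read beside 30.2% of all genes called higher and 30.1% called lower.

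Further genes of the centromere and kinetochore rose for 20 of 27 and fell for 0, with a median of 0.41. Cenpu and Cenpn, of the inner kinetochore, rose by 1.49 (SE 0.09) and 1.18 (SE 0.08). Mad1l1, the partner that brings Mad2 to kinetochores, rose by 1.03 (SE 0.09), and Ska1, which holds on to microtubules, by 0.86 (SE 0.10). Of 14 genes of cohesin, its regulators and condensin II, 9 rose and 0 fell (median 0.37). Cdca5, encoding sororin, which stabilizes cohesin, rose by 0.97, Smc1a, of the cohesin ring, by 0.61, and Ncapg2 and Stag1 by 0.58 each.

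Subunits and partners of the anaphase-promoting complex had the smallest median of the 6 lists, 0.11, with 5 of 14 higher, 8 not called and 1 lower. Ube2s, its chain-extending enzyme, rose by 0.66, and the subunits Cdc27 and Anapc5 by 0.63 and 0.43. Fzr1, encoding the late activator Cdh1, rose by 0.27. The subunit that fell was Anapc7, at -0.26, named here after its value was seen.

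Of 17 other motors and genes of centrosomes and cytokinesis, 7 rose and 3 fell (median 0.17). Nedd1, which brings gamma-tubulin to centrosomes, fell by 0.93 (SE 0.12), with ratios of -0.55, -1.06 and -1.19. Kif18a, which damps chromosome movement, rose by 0.69, Ckap2, a spindle protein, by 0.67, and Plk4, which starts centriole duplication, by 0.62. The others that fell, named after their values were seen, were Cep55, of late cytokinesis, at -0.60 and Kifc1, a minus-end motor, at -0.33.

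Among 13 further genes of mitotic control, 7 rose and 2 fell (median 0.40). Fbxo5, encoding Emi1, an inhibitor of the anaphase-promoting complex, rose by 0.93, Nek2, a centrosome kinase, by 0.91, Cks2, a partner of Cdk1, by 0.63, and Pkmyt1, which inhibits Cdk1, by 0.54. The 2 that fell, named after their values were seen, were Ccnf, encoding cyclin F, at -0.45 and Bora, a cofactor in activating Plk1, at -0.36. Of 11 genes of the DREAM and Myb-MuvB complexes, whose shared core binds TTTGAA, 5 rose and 0 fell (median 0.25). Tfdp1 and Tfdp2, partners of E2F proteins, rose by 1.41 and 0.52, Rbl1, encoding the pocket protein p107, by 0.95 and Rbbp4 by 0.37. Mybl2, encoding the B-Myb subunit, stood at 0.02 and Lin54, whose protein binds TTTGAA, at -0.16, neither called.

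**Figure D4:**
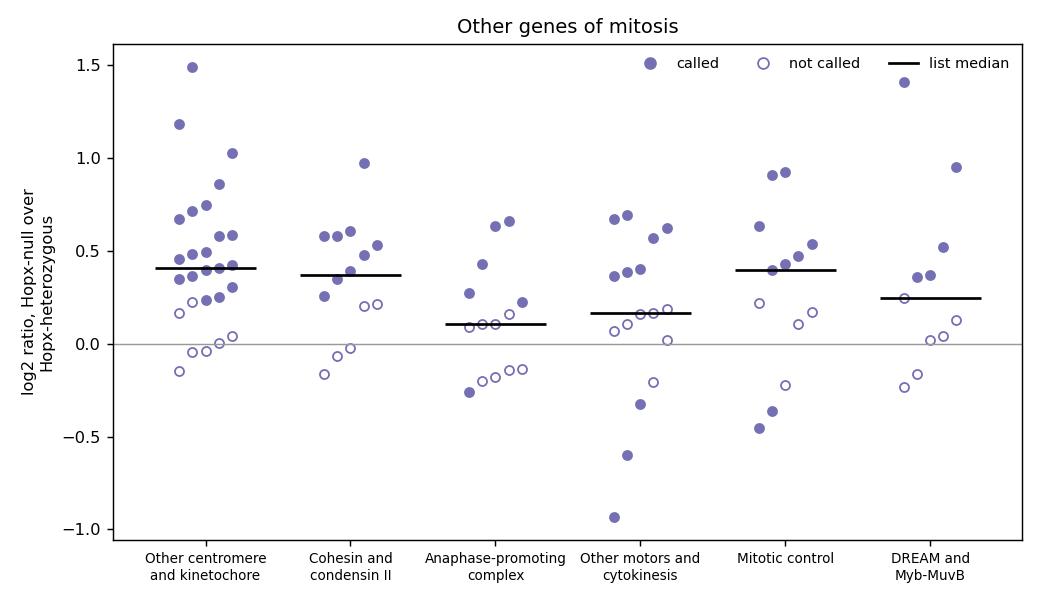
Log2 ratio of null over heterozygous (vertical axis) of each tested gene in the 6 lists of other mitotic genes, filled where limma called it and open where it did not, with a bar at each list's median. Medians lie between 0.11 for the anaphase-promoting complex and 0.41 for the centromere and kinetochore, and called genes below 0 occur in 3 of the lists.

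Markers of several cell types moved with genotype on the same arrays. All 11 cardiomyocyte markers fell (median -2.93), and the log2 of their summed signal was 12.7 to 13.3 in null cultures, against 17.3 to 17.6 in heterozygous cultures. All 8 visceral endoderm markers fell (median -3.00), with summed signals of 13.8 to 14.3 in null cultures, against 16.8 to 17.2 in heterozygous cultures. Heart markers, which the label of cardiac differentiation calls for, were thus present in both genotypes and far lower in null cultures.

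Of 11 pluripotency markers, 8 rose and 3 fell (median 1.07), with summed signals of 15.5 to 15.7 in null cultures, against 14.6 to 14.8 in heterozygous cultures. All 8 embryonic blood markers rose (median 1.97), with summed signals of 17.1 to 17.3 in null cultures, against 15.1 to 15.9 in heterozygous cultures. The globin genes Hbb-bh1 and Hbb-y were each saturated on 1 null array, so that the null sum is a lower bound there. Of 10 fibroblast markers, which the feeder cells could supply, 6 rose and 2 fell (median 0.47), with summed signals of 15.7 to 16.2 in null cultures, against 14.7 to 15.3 in heterozygous cultures. No tested marker in these lists was below background on every array of a genotype. The part of any of these cell types in the ratios of the mitotic genes was not tested.

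The fit behind the calls shares spread between genes, and with 3 arrays this carries much of the count. An ordinary t statistic per gene does not share it. This statistic called 12 members higher and 0 lower after adjustment, beside 10.3% of all genes called higher. At an unadjusted p under 0.05, in either direction, stood 26 of the 45 members, beside 9538 of all 19803 genes. Treating the channels as separate samples, without the pairing within an array, gave 20 higher and 0 lower, beside 20.4% of all genes called higher. The authors' deposited table, put through the same fit, gave 22 higher and 0 lower with a median of 0.33, beside 19.9% of all genes called higher.

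**Figure D5:**
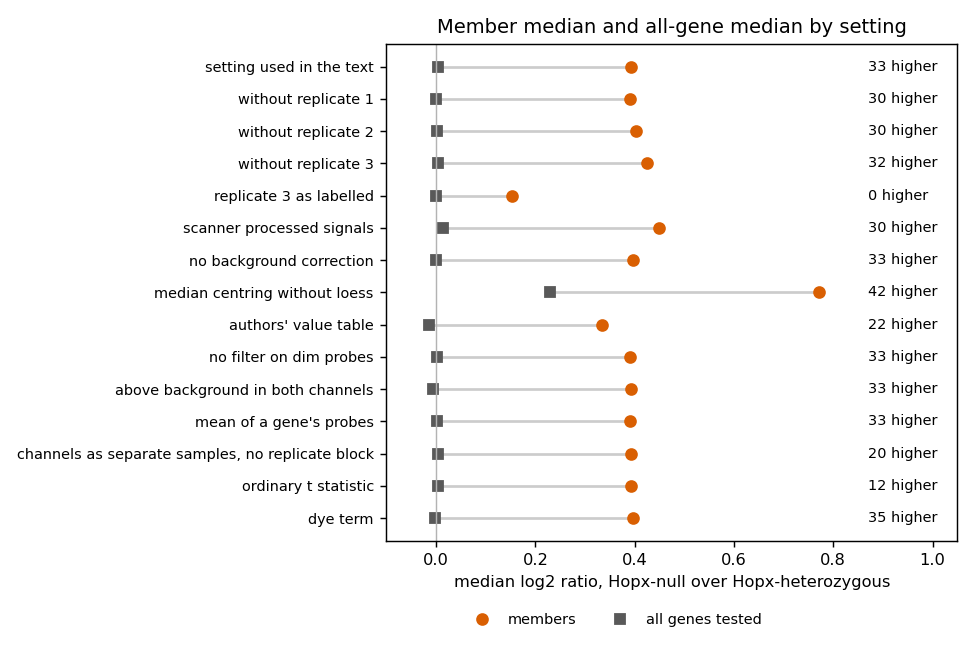
Median log2 ratio of null over heterozygous (horizontal axis) over the members (circles) and over all genes tested (squares) under each setting, with the number of members called higher at the right. The member median lies between 0.33 and 0.45 in all settings but 2, being 0.15 with replicate 3 as labelled and 0.77 with median centring without loess, where the all-gene median moves to 0.23.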

How the data were processed

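Total RNA of null and heterozygous cultures was hybridised in pairs to 3 Agilent mouse arrays of 2 colours. The deposited scanner files hold the intensity of each spot, with its local background and flags, written, per the file headers, by Agilent Feature Extraction 11.5.1.1 (8.5.1.1 per the submitters' processing notes). A further table deposited by the authors holds processed values, read here as log2 ratios, whose scale and centring are not stated (column medians -0.101, -0.111 and 0.071). Its replicate 3 runs opposite to the scanner ratios.

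Median foregrounds were corrected by normexp (offset 50) and log2 ratios loess-normalized within arrays (limma 3.58.1, R 4.3.3), with control and outlier spots at weight 0 and outlier spots left out. Spots of a probe were averaged. Probes well above background in 1 genotype on all 3 arrays were kept (24553 of 39429), 71.1% of all probes being named through RefSeq accessions (GRCm38.p6). Mean ratios were compared with 0 by lmFit and eBayes, SEs being moderated, and each gene took its brightest probe, with Benjamini-Hochberg adjustment over genes. Channel signals are after loess and Aquantile. If replicate 3 was a dye swap, which the labels do not say, a dye effect would not cancel fully over 3 arrays. Array values are given in full for the 12 called members with the largest ratio of equal sign on all arrays and for Hopx, Cdk1, Ccnb1, Plk1, Top2a, Mki67 and Foxm1, and up to 4 called genes with the largest change are named per other list. The members and lists were chosen with earlier results of these data known.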

Additional observations from a re-analysis of the deposited data

How the results depend on the processing

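Under the alternatives for replicates, background, normalization, filter, probe rule, pairing, variance and dye, no member called higher was called lower. Leaving out 1 array gave 30 to 32 members higher and 0 lower, beside 25.2% to 29.7% of all genes called higher. The member median lay between 0.39 and 0.42, and 3 to 8 of the other mitotic genes were lower (3 without replicate 2). Ccnb2, Ndc80 and Prc1 lost their call without replicate 1, Aurka, Bub3, Ccnb2 and Prc1 without replicate 2, and Bub3, Kif2c, Ndc80 and Ube2c without replicate 3, while Bub1 gained one without replicate 2 and Cenpe, Smc4 and Tpx2 without replicate 3.

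Replicate 3 taken as labelled left 0 genes called by limma (0 higher, 0 lower), 0 members and 0 of the other mitotic genes in either direction, with 61 genes at an unadjusted p under 0.05, and the member median was 0.15. Bub3 (-0.0793), Kif2c (-0.13), Ndc80 (-0.0181) and Ube2c (-0.0327) then changed sign, which follows from 1 array of opposite sign. With the ordinary t statistic 4122 genes passed (2034 higher, 2088 lower), 12 members, and 13 other mitotic genes higher and 3 lower. The authors' table gave 3931 genes higher and a member median of 0.33. Median centring without loess gave 3014 genes lower, a member median of 0.77, 2 other mitotic genes lower and Hmmr at 0.39. Dropping the pairing of an array's channels (no replicate block) gave 20 members called, all higher, and 2 other mitotic genes lower. The dye term gave 1 member lower, Pttg1. Chosen after seeing the data, limma's treat against 1.2-fold called 6540 genes (3232 higher, 3308 lower), 15 members, all higher, and 27 other mitotic genes higher and 2 lower. Asking for at least 1.5-fold left 5373 genes (2643 higher, 2730 lower), 9 members, all higher, and 19 other mitotic genes higher and 2 lower, by construction. For the other changes, the cause was not tested. The brightest probe of each tested member was not saturated on any array in either genotype, and signal over background kept Aurkb out.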
